A study of Rattus norvegicus with 8 samples.

Results

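The genes described here encode aggrecan (Acan), link protein (Hapln1), cartilage oligomeric matrix protein (Comp), chondromodulin (Cnmd) and cartilage acidic protein (Crtac1), non-collagenous products of chondrocytes. Every probe set that the platform annotation assigned to just 1 of these 5 genes was taken, which gave 10 of the 31042 probe sets analysed and 5 of 14217 named genes. Acan had 2 probe sets, Hapln1 3, Crtac1 3, and Comp and Cnmd 1 each. The RNA was from the growth plate of the rat femur, the layer of cartilage that makes long bones grow, and an Affymetrix array measured it. The groups were the perichondral, reserve, proliferative and hypertrophic zones (4 in all), each with 1 array from rats aged 42 days and 1 from rats aged 46 days. Each array received RNA pooled from 3 rats, and the labels name no strain, genotype or treatment. Both ages count as replicates in the design, which leaves n = 2 arrays a zone, and no label says how one zone was cut from the next. With so few arrays, p-values between zones measure the spread between pools, which also holds any effect of age.

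Aggrecan carries many sulfated glycosaminoglycan chains, and its core protein binds the long polysaccharide hyaluronan. Link protein clamps that bond, so that aggrecan, hyaluronan and link protein form the large aggregates that hold water in cartilage. Comp is a thrombospondin that bridges collagen fibrils and other matrix proteins, chondromodulin is released from a membrane precursor and inhibits blood vessel growth, and cartilage acidic protein is a secreted calcium-binding glycoprotein. In the growth plate, chondrocytes of the reserve zone feed columns of dividing cells in the proliferative zone, which then enlarge in the hypertrophic zone before bone replaces the cartilage.

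The zone mean was lowest in hypertrophic arrays for 7 of the 10 probe sets, against 25.2% of all probe sets and 27.9% of the brightest 20%. These 7 comprise 1 Acan, all 3 Hapln1, the Comp, the Cnmd and 1 Crtac1 probe set. The highest zone mean was in reserve arrays for 5 of the 10 and in proliferative arrays for 2, and the share over all probe sets was not counted. None of the differences passed the test: of 60 comparisons between 2 zones, 0 had an adjusted p below 0.05 with limma and 4 had an unadjusted p below 0.05. Between the same pairs of zones, 0% to 0.029% of all probe sets were called and 3.75% to 8.1% had an unadjusted p below 0.05. Levels were also lower on average at 46 than at 42 days for 9 of the 10 probe sets, while 51.4% of all probe sets were higher at 46 days. Again 0 members passed, as did 0% of all probe sets. All levels are log2(intensity + 16) after quantile normalization, on which the median probe set stands at 8.25, and a difference of 1 is a doubling. This scale understates differences of dim probe sets, and because the RNA is bulk, fewer cells of a type and less RNA per cell cannot be told apart.

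The sequences around the annotated start of 4 of the 5 genes were in the RefSeq table (GRCr8), each running from 250 bases before to 50 bases after it. They are shown to set the start regions of Acan and Comp, which correlated at r = 0.919 on Acan 1387355_at and 0.453 on 1368836_a_at over the 8 arrays, beside those of Hapln1 and Crtac1. Capitals mark matches, on either strand, to the TATA box (TATAAA), the CCAAT box (CCAAT), the GC box (GGGCGG) and a pair of SOX factor core motifs (ACAAAG and ACAATG).
Acan, chr1:142390701-142391000, plus strand: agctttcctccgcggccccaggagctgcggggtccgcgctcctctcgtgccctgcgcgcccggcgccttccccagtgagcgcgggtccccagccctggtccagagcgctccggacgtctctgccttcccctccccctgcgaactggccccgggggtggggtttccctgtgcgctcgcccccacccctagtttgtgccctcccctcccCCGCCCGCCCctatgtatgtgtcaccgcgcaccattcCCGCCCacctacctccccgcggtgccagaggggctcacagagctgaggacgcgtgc
Hapln1, chr2:22366717-22367016, plus strand: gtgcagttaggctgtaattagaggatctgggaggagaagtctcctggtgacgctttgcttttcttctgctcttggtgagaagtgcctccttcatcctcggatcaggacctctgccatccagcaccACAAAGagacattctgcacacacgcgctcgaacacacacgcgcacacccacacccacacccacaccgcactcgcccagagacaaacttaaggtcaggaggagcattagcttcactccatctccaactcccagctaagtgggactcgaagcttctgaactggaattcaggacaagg
Comp, chr16:19089499-19089798, minus strand: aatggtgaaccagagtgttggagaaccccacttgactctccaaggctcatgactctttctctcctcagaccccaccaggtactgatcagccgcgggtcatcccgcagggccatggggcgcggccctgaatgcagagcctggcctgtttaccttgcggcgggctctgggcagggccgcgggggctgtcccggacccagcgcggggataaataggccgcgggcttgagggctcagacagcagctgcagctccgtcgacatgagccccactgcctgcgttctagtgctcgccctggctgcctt
Crtac1, chr1:251182640-251182939, minus strand: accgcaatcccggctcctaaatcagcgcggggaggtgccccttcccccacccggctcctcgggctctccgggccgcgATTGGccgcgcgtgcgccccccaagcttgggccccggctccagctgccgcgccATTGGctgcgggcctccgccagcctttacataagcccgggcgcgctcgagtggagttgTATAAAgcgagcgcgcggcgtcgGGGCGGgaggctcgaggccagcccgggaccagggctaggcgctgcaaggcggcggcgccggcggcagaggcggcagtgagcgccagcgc
Cnmd had no entry. The Acan window held 3 GC boxes on the opposite strand, the first 2 of which overlap, and was 73% G or C, against a median of 51.7% over 33469 windows of that length. The Hapln1 window held 1 ACAAAG, starting at position -125 from the start, and was 53.7% G or C. The Comp window, 64.7% G or C, held no match. The Crtac1 window held a TATAAA starting at position -62, a CCAAT box at 2 places on the opposite strand and 1 GC box. Among all windows, 14.2% hold TATAAA, 37.5% CCAAT, 33.1% GGGCGG, 18.8% ACAAAG and 13.2% ACAATG, so each match is a description of these letters and no more.

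The zones were checked against marker lists. Cartilage markers had the lowest level in hypertrophic arrays, with list means of 13.15 at 42 days and 11.97 at 46 days against 13.39 to 14.82 elsewhere, and all 7 measured markers were above the median of all probe sets. Col10a1, the collagen that defines hypertrophic chondrocytes, stood at 16.93 and 15.26 in hypertrophic arrays and at 10.88 to 13.78 in the others. The hypertrophic list it belongs to (8 of 9 measured) did not all follow it: 3 of 8 (Mmp13, Spp1 and Ibsp) had a higher mean in reserve than in hypertrophic arrays, and 2 of 8 (Panx3 and Pth1r) in proliferative arrays. Mmp13, the collagenase of late hypertrophic cells, stood at 14.75 and 14.73 in reserve against 14.73 and 14.09 in hypertrophic arrays. Of the reserve chondrocyte list 7 of 8 genes were measured, 1 of them above the median, and its summed level was 62.6 to 68.7 in reserve arrays, 58.7 to 65.8 in perichondral, 52.2 to 60.4 in proliferative and 44.5 to 48.0 in hypertrophic arrays. Cell division markers did not set the proliferative zone apart: their list means there were 9.71 and 9.46, within the 9.06 to 10.60 of the other zones. The Gapdh control's ratio of 3' to 5' signal, which is higher where RNA is degraded, was 8.15 in the 42-day reserve array, 7.10 and 5.39 in the proliferative arrays at 42 and 46 days, and 3.63 to 4.47 in the other 5.

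Acan, the aggrecan core protein, was measured by a bright and a dimmer probe set. On the bright one, 1387355_at, the level was 12.73 at 42 days and 12.08 at 46 days in perichondral arrays, 14.12 and 12.03 in reserve, 13.08 and 12.69 in proliferative, and 12.19 and 10.66 in hypertrophic arrays. The 42-day reserve array was the highest and the 46-day hypertrophic array the lowest of all 8, and both proliferative arrays stood above both hypertrophic ones, though not as deposited or median-centred. Zone means were 12.41 ± 0.46 (SD, n = 2) for perichondral, 13.07 ± 1.48 for reserve, 12.88 ± 0.28 for proliferative and 11.42 ± 1.08 for hypertrophic arrays. Reserve exceeded hypertrophic by 1.65 (SE 0.70, 95% interval 0.16 to 3.14), a 3.14-fold difference that missed the threshold (limma adjusted p = 0.582, unadjusted p = 0.0318). Without the 42-day reserve array the difference was 0.60, and without the 46-day reserve array 2.69. Proliferative exceeded hypertrophic by 1.46 (SE 0.70, limma adjusted p = 0.898), or by 0.71 without the 46-day hypertrophic array.

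The dimmer Acan probe set, 1368836_a_at, was still above the median probe set in 7 of the 8 arrays. On it Acan ran from 8.23 in the 46-day proliferative array to 10.11 in the 42-day reserve array. All 4 arrays from 42-day rats (9.11 to 10.11) stood above all 4 from 46-day rats (8.23 to 9.09), as deposited too but not median-centred, while the zones overlapped. Its mean was 9.60 ± 0.72 (SD, n = 2) in reserve and 8.75 ± 0.51 in hypertrophic arrays, a difference of 0.85 (SE 0.76, limma adjusted p = 0.806). Proliferative and hypertrophic means differed by only -0.04 here, against 1.46 on the bright probe set. Across the 8 arrays the Acan probe sets correlated at r = 0.709, a description over arrays that share zones and ages.

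Hapln1, the link protein of the aggrecan aggregate, was among the brightest signals of the plate on both 1386310_at and 1384541_at, which lay above at least 99.4% of probe sets in every array. On 1386310_at its level was 16.13 at 42 days and 16.06 at 46 days in perichondral, 16.25 and 16.13 in reserve, 16.60 and 15.71 in proliferative, and 15.21 and 14.55 in hypertrophic arrays. Both hypertrophic arrays stood below all 6 others on this scale, but as deposited, on the same log2 scale without quantile normalization, the 42-day hypertrophic array (15.36) was above the 46-day proliferative one (15.11), as it was with median-centred arrays. Both hypertrophic arrays were below all perichondral and reserve arrays under each of these scalings. The perichondral and reserve means, 16.09 ± 0.05 (SD, n = 2) and 16.19 ± 0.09, lay 0.10 apart, while the hypertrophic mean was 14.88 ± 0.47. The hypertrophic zone was lower than the perichondral zone by 1.21 (SE 0.905), than the reserve zone by 1.31 and than the proliferative zone by 1.27, which is 2.32-fold, 2.47-fold and 2.41-fold, and limma's adjusted p was 0.882, 0.738 and 0.933.

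The second bright Hapln1 probe set, 1384541_at, differed most between ages within 2 zones. It stood at 15.47 and 15.69 in perichondral and 15.33 and 15.43 in reserve arrays, at 16.39 and 14.47 in proliferative arrays, and at 15.47 and 13.42 in hypertrophic arrays, at 42 and 46 days in each case. The low values were those of the 46-day proliferative and 46-day hypertrophic arrays, while after normalization the 42-day hypertrophic array equalled the 42-day perichondral one to 2 decimals. Without the 46-day hypertrophic array, the difference of reserve from hypertrophic was -0.09 rather than 0.94. The beta-actin 3' to 5' signal ratio was 4.56 and 4.59 in these low arrays, 4.65 in the 42-day reserve array and 0.557 to 2.32 in the other 5. Its part in the result was not tested.

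The third Hapln1 probe set, 1370125_at, ran from 9.95 in the 46-day hypertrophic array to 11.77 in the 42-day reserve array. Its zones overlapped in all 6 comparisons, with means between 10.34 and 11.10. The bright pair correlated at r = 0.835 across the 8 arrays, but 1370125_at correlated with them at only 0.129 and 0.339, so the probe sets of Hapln1 did not give one profile.

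**Figure D1:**
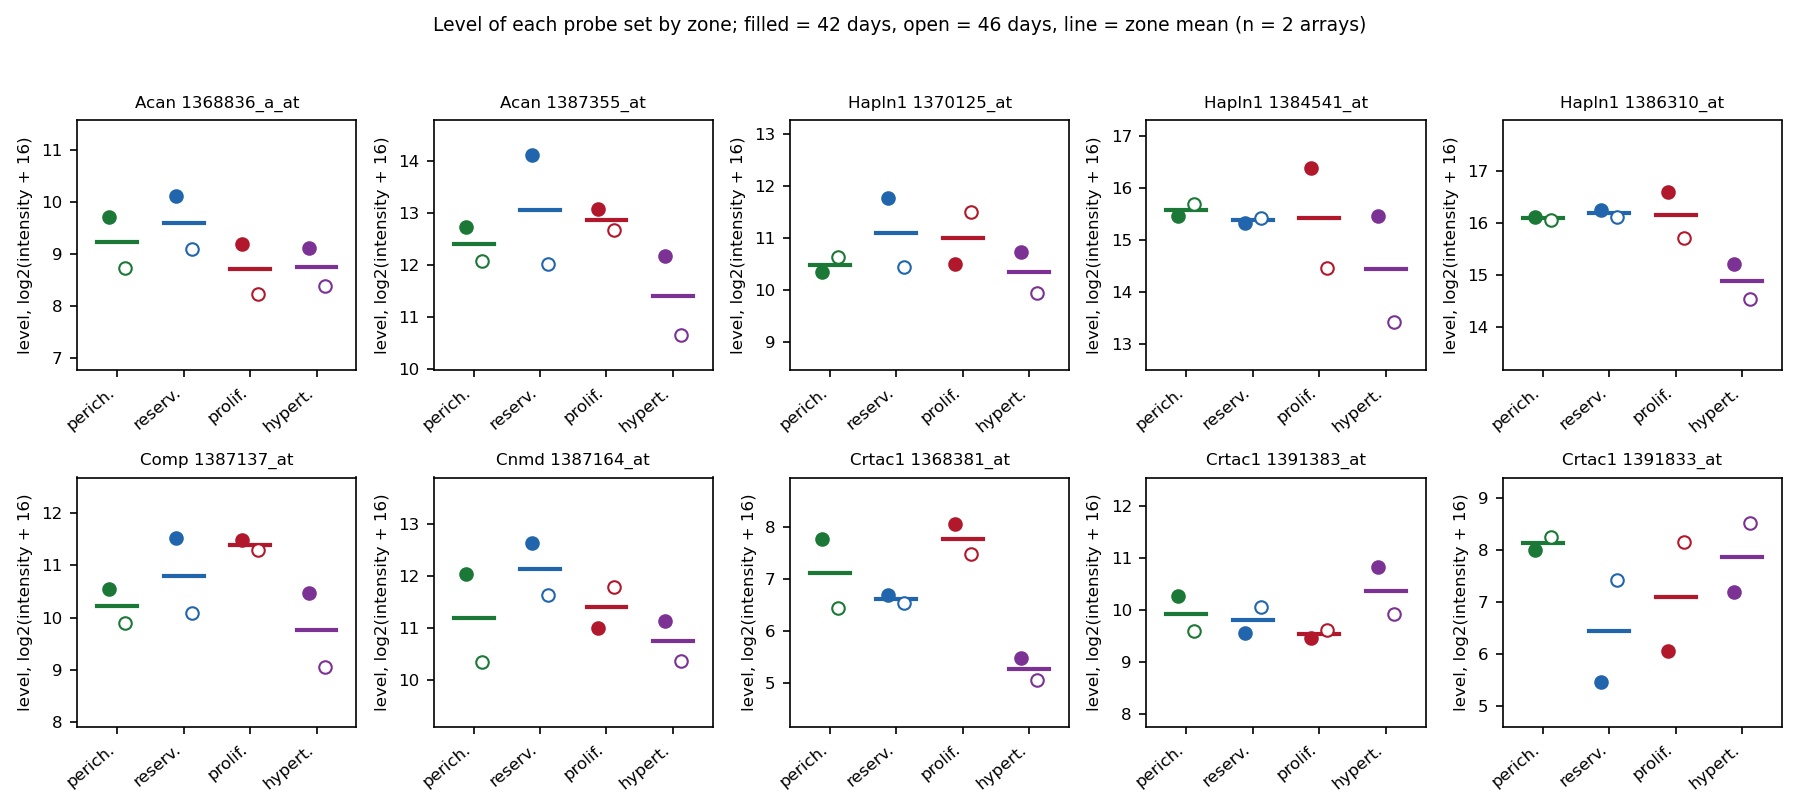
Level of each of the 10 probe sets in each array, log2(intensity + 16) after quantile normalization, by zone (perichondral, reserve, proliferative, hypertrophic). Filled points are 42-day arrays, open points 46-day arrays and lines zone means, and all panels have a vertical axis of the same length but their own limits; on Hapln1 1386310_at both hypertrophic arrays, at 15.21 and 14.55, sit below the other 6, which did not hold as deposited, where the 46-day proliferative array was lower than the 42-day hypertrophic one.

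Comp, the thrombospondin of cartilage and tendon, stood at 10.55 at 42 days and 9.90 at 46 days in perichondral arrays, 11.53 and 10.08 in reserve, 11.49 and 11.29 in proliferative, and 10.47 and 9.05 in hypertrophic arrays. Both proliferative arrays were above both perichondral and both hypertrophic arrays, as deposited and median-centred too, whereas the lower reserve array lay between the perichondral ones. The mean was 11.39 ± 0.14 (SD, n = 2) in proliferative, 10.81 ± 1.03 in reserve, 10.23 ± 0.46 in perichondral and 9.76 ± 1.01 in hypertrophic arrays. Proliferative exceeded hypertrophic by 1.63 (SE 0.65, 95% interval 0.24 to 3.01), a 3.09-fold difference with the lowest unadjusted p of the 60 comparisons, 0.0239, that missed the threshold (limma adjusted p = 0.897). It was 0.93 without the 46-day hypertrophic array. Proliferative exceeded perichondral 2.23-fold, with a perichondral minus proliferative difference of -1.16 (SE 0.65, limma adjusted p = 0.963).

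Cnmd, the angiogenesis inhibitor chondromodulin, stood at 12.03 at 42 days and 10.34 at 46 days in perichondral arrays, 12.63 and 11.63 in reserve, 11.00 and 11.78 in proliferative, and 11.13 and 10.36 in hypertrophic arrays. Both reserve arrays lay above both hypertrophic arrays, and the perichondral arrays lay far apart, with the 46-day array at 10.34 beside 10.36 in the 46-day hypertrophic array. The mean was 12.13 ± 0.71 (SD, n = 2) in reserve, 11.39 ± 0.55 in proliferative, 11.18 ± 1.19 in perichondral and 10.74 ± 0.54 in hypertrophic arrays. Reserve exceeded hypertrophic by 1.39 (SE 0.64, 95% interval 0.02 to 2.75), or 2.61-fold, with 1.5 at 42 days and 1.27 at 46 days. This missed the threshold (limma adjusted p = 0.61, unadjusted p = 0.0468). Without the 42-day reserve array it was 0.87.

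The 3 probe sets of Crtac1, cartilage acidic protein, gave unlike profiles. On 1368381_at the level was 7.78 at 42 days and 6.45 at 46 days in perichondral, 6.71 and 6.54 in reserve, 8.06 and 7.48 in proliferative, and 5.48 and 5.06 in hypertrophic arrays. Both hypertrophic arrays were below all 6 others, but every array was below the median probe set, so the sizes rest on dim signal. Proliferative exceeded hypertrophic by 2.50 (SE 1.12, 95% interval 0.14 to 4.86), or 5.66-fold, which missed the threshold (limma adjusted p = 0.897, unadjusted p = 0.0389). With 64 in place of 16 added to each intensity this difference was 1.62.

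On the brightest Crtac1 probe set, 1391383_at, the hypertrophic mean was the highest and the proliferative mean the lowest. It stood at 10.26 and 9.60 in perichondral, 9.56 and 10.06 in reserve, 9.47 and 9.61 in proliferative, and 10.82 and 9.92 in hypertrophic arrays, at 42 and 46 days. Both hypertrophic arrays were above both proliferative ones, and proliferative minus hypertrophic was -0.83 (SE 0.62, limma adjusted p = 0.933). The third, 1391833_at, was above the median probe set in only 2 of the 8 arrays, so its sizes too rest on dim signal. It had its highest mean, 8.12 ± 0.19 (SD, n = 2), in perichondral arrays and its lowest, 6.44 ± 1.38, in reserve arrays. It ran from 5.46 in the 42-day reserve array to 8.51 in the 46-day hypertrophic array. Across the 8 arrays 1368381_at correlated with the other two at -0.447 and -0.296, so no single zone profile can be given for Crtac1.

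Over all 10 probe sets, 9 had a higher mean in perichondral, 8 in reserve and 7 in proliferative than in hypertrophic arrays. With limma 0 of the 10 were called in each of these comparisons, where 0.029%, 0.0226% and 0.0129% of all probe sets were called. At an unadjusted p below 0.05 the members numbered 0, 2 (Acan 1387355_at and Cnmd) and 2 (Comp and Crtac1 1368381_at), against 6.17%, 8.1% and 5.52% of all probe sets in either direction. Both arrays of the first zone exceeded both hypertrophic arrays for 2, 3 and 4 members, against 16.7%, 17.7% and 15.7% of all probe sets. As deposited this held for 2, 3 and 2 members, against 16%, 15.6% and 15.5% of all probe sets. Median-centred it held for 2, 4 and 2 members, against 17.4%, 20.1% and 15.1%. Both proliferative arrays were below both hypertrophic arrays for 1 member, Crtac1 1391383_at, against 15.8% of all probe sets. The median difference over the members was 0.47, 0.99 and 0.82, against -0.03, -0.06 and 0.00 over all probe sets. An F-test over the 4 zones called 0 of the 10, with 0 at an unadjusted p below 0.05, against 0.0387% and 6.2% of all probe sets, and its smallest adjusted p among the members was 0.856 for Comp.

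With the log2 Gapdh ratio as a covariate, reserve minus hypertrophic was 0.55 for Acan 1387355_at, 0.23 for Comp and 0.88 for Cnmd. Proliferative minus hypertrophic was then 0.10 for Acan 1387355_at and 0.63 for Comp, while for Hapln1 1386310_at it was 0.96 and reserve minus hypertrophic 1.05. These values stand beside the higher Gapdh ratios of the 42-day reserve array and the proliferative arrays.

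**Figure D2:**
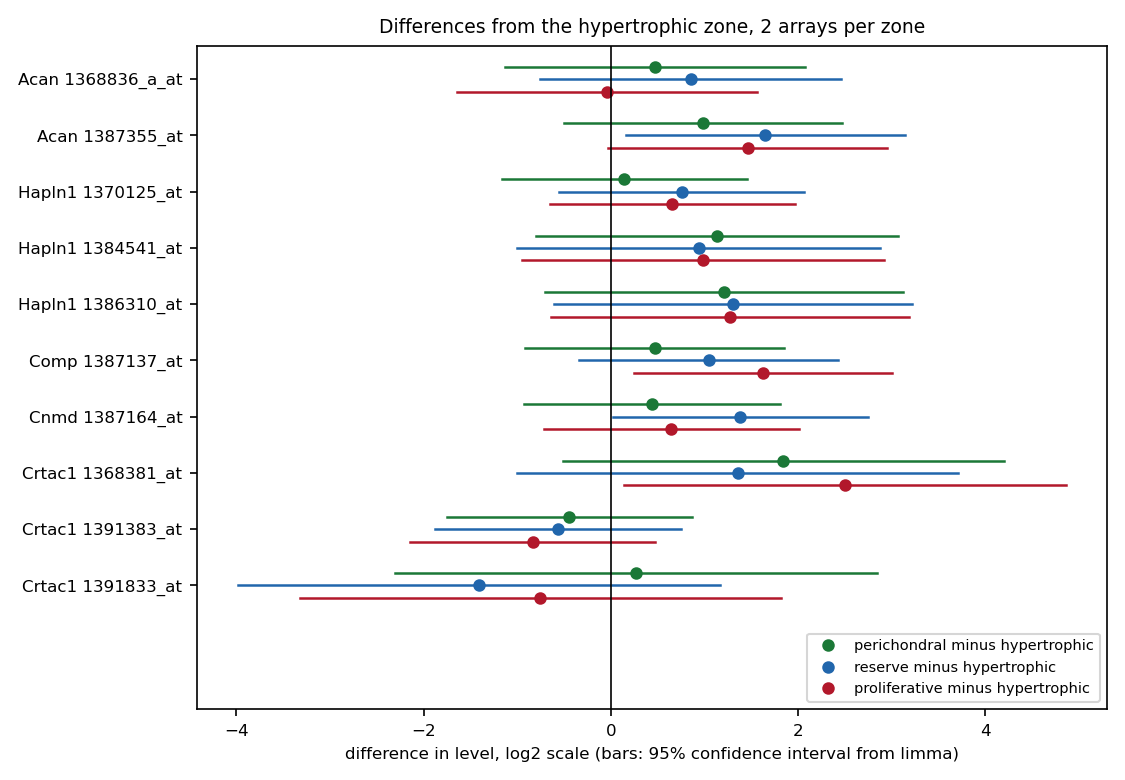
Difference in level between each of the other 3 zones and the hypertrophic zone for the 10 probe sets, on the log2 scale, with points for the difference of zone means and bars for limma's 95% confidence interval. Points lie right of 0 for 9, 8 and 7 of the 10 probe sets (perichondral, reserve and proliferative), all 3 points of Crtac1 1391383_at lie left, and all but 4 of the intervals reach across 0; the line farthest right is Crtac1 1368381_at, proliferative minus hypertrophic, at 2.50.

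The series title sets the perichondral beside the reserve zone. Between them 0 of the 10 members were called with limma, as were 0% of all probe sets, and 0 members had an unadjusted p below 0.05, against 3.75% of all probe sets. Perichondral minus reserve was -0.66 (SE 0.70, 95% interval -2.15 to 0.82) for Acan 1387355_at, -0.10 (SE 0.90) for Hapln1 1386310_at, -0.58 (SE 0.65) for Comp and -0.94 (SE 0.64, 95% interval -2.31 to 0.42) for Cnmd. Of these, only Cnmd was lower in perichondral than in reserve arrays by more than 0.5 at both ages, by -0.60 and -1.29. The Cnmd difference was -0.095 without the 46-day perichondral array, -0.44 without the 42-day reserve array, -1.76 without the 42-day perichondral array and -1.44 without the 46-day reserve array. Acan 1387355_at and Comp stood at 0.37 and 0.15 without the 42-day reserve array, and at 0.32 and 0.14 with the Gapdh covariate. On Hapln1 1384541_at and Crtac1 1391833_at both perichondral arrays stood above both reserve arrays, 2 of 10 members against 18.6% of all probe sets; median-centred, this held for Crtac1 1391833_at alone. Neither perichondral minus proliferative nor reserve minus proliferative called a member with limma, and 0 members had an unadjusted p below 0.05 there, against 5% and 7.64% of all probe sets. Both perichondral arrays were below both proliferative arrays for 1 member, Comp (17.9% of all probe sets), and both reserve arrays below both proliferative arrays for 1, Crtac1 1368381_at (21.7%).

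At 46 days Acan was lower than at 42 days in all 4 zones on both probe sets, by -0.65, -2.09, -0.39 and -1.53 in perichondral, reserve, proliferative and hypertrophic arrays on 1387355_at. Its mean was 13.03 at 42 days and 11.86 at 46 days, a difference of -1.17 (SE 0.36, 95% interval -1.92 to -0.41) that missed the threshold (limma adjusted p = 0.407, unadjusted p = 0.00442). With arrays centred on their medians instead of quantile normalized it was -1.79 and passed (limma adjusted p = 0.0282), and with the Gapdh covariate it was -0.48. The age test takes the 4 zones as replicates of each age, and no label says whether they came from the same rats. Its p-values thus measure how the age difference varied between zones and need not reflect the spread between animals. Comp was lower at 46 days in all 4 zones too, by -0.65, -1.45, -0.20 and -1.43 in the same order, with a mean difference of -0.93 (SE 0.39, limma adjusted p = 0.547), or -0.60 with the Gapdh covariate. Hapln1 was lower on all 3 probe sets on average, by -0.43 on 1386310_at (SE 0.42, limma adjusted p = 0.821) and by -0.91 on 1384541_at (SE 0.46, limma adjusted p = 0.621). The mean difference on 1370125_at was only -0.22 (SE 0.42, limma adjusted p = 0.929), and 0.57 with the Gapdh covariate. This probe set was higher at 46 days by 0.28 in perichondral and 0.99 in proliferative arrays, and lower in reserve and hypertrophic arrays. On 1384541_at it was 0.22 and 0.10 in perichondral and reserve and -1.91 and -2.05 in proliferative and hypertrophic arrays. As deposited it was negative in all 4 zones, at -0.11, -0.36, -3.02 and -2.91 in the same order. The mean age difference of 1386310_at and 1384541_at was -0.99 and -1.60 as deposited, -1.23 and -1.84 median-centred, -0.63 and -1.62 with the Gapdh covariate, -0.27 and -0.57 without the 46-day proliferative array, and -0.35 and -0.52 without the 46-day hypertrophic array. Cnmd was lower in 3 of 4 zones and higher by 0.78 in proliferative arrays, or by 0.34 as deposited. Crtac1 1391383_at was lower on average by -0.23 (SE 0.43, limma adjusted p = 0.925) but higher by 0.50 in reserve and 0.14 in proliferative arrays. The only member with a higher mean at 46 days was the dim Crtac1 1391833_at (mean 1.41, SE 0.82, limma adjusted p = 0.673, and 0.81 with the Gapdh covariate). It was higher in all 4 zones, as were 8.59% of all probe sets.

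In all, 5 of 10 members (both Acan probe sets, Hapln1 1386310_at, Comp and Crtac1 1368381_at) were lower at 46 days in every zone, against 7.73% of all probe sets and 9.05% of the brightest 20%. With limma 0 members were called for age, as were 0% of all probe sets, and 2 (Acan 1387355_at and Comp) had an unadjusted p below 0.05, against 8.43% of all probe sets. As deposited there were again 5 (6.04% of all probe sets), with Hapln1 1384541_at in place of Crtac1 1368381_at, and median-centred there were 6 (10.3%), with Hapln1 1384541_at and Cnmd in its place. As deposited, the median probe set was 0.16 higher at 46 days, and the 9 members with lower means at 46 days kept that sign both as deposited and median-centred.

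**Figure D3:**
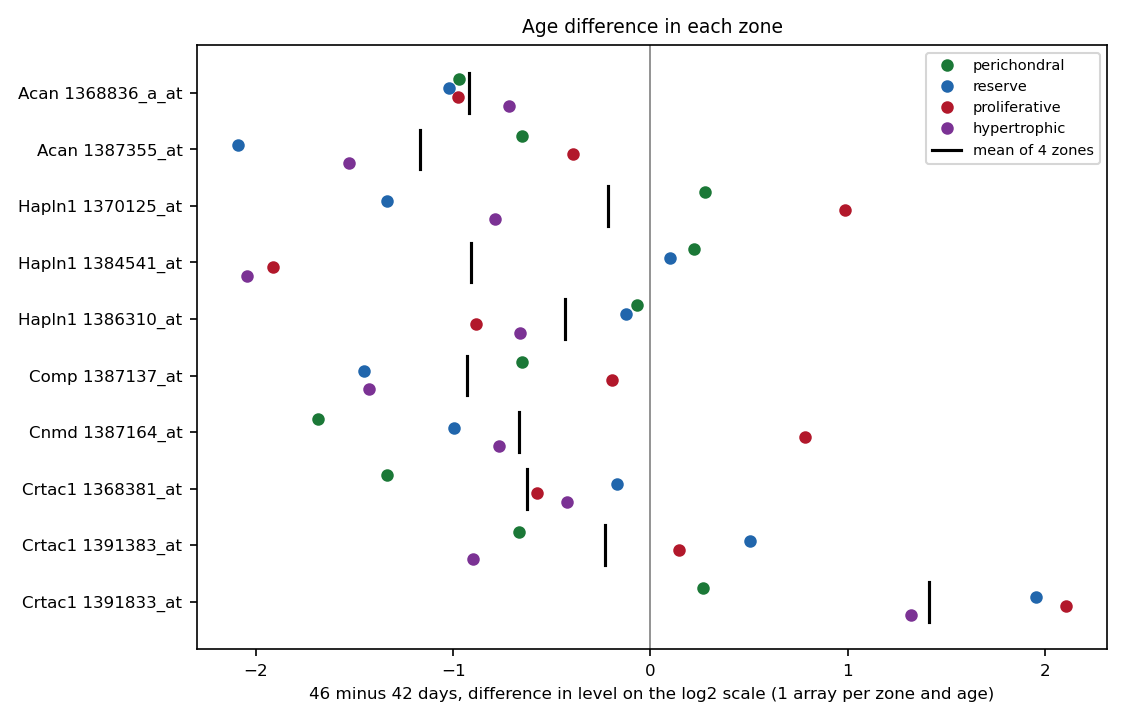
Difference between 46 and 42 days in each zone for the 10 probe sets, on the log2 scale, with 1 array per zone and age; points are zones and black bars the mean of the 4 zones. The 4 points of each Acan probe set and of Comp lie left of 0, and those of Crtac1 1391833_at right of it.

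For the brightest probe set of each member, the 5 genes with the most similar profile over the 8 arrays were found among 7718 genes above the median level, as a description over arrays that share zones and ages. For Acan these were Efs, Tns1, Nudt19, Cmtm5 and Rcn3 (r from 0.934 to 0.948). For Hapln1 they were RT1-CE16, the matrilin Matn2, the potassium channel gene Kcnma1, Ggct and the secreted integrin ligand Edil3 (r from 0.953 to 0.972). For Comp they were the ribosomal protein gene Rpl18, the proteasome subunit gene Psmb1, Acan itself (r = 0.919), the muscle troponin Tnni2 and Nudt19. For Cnmd they were Anxa2, Tmed9, Cep76, Ergic3 and Ddx1 (r from 0.93 to 0.967), and for Crtac1 Zik1, Itprid2, Arl6, Dpy19l1 and Aup1 (r from 0.903 to 0.932). Of the 7718 genes, 0.713% had r above 0.9 with Hapln1, 0.376% with Acan, 0.181% with Cnmd, 0.104% with Comp and 0.0648% with Crtac1.

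Matn2 and Edil3 are matrix proteins that also stand in the list of related cartilage proteins, and their ranges were wider than that of Hapln1. Edil3 stood at 12.86 and 13.02 in perichondral, 12.09 and 12.05 in reserve, 13.46 and 10.75 in proliferative, and 10.25 and 8.65 in hypertrophic arrays at 42 and 46 days. Like Hapln1 1386310_at on this scale, it was lower in both hypertrophic arrays than in all 6 others, with the 46-day proliferative array next. Both genes were picked for their correlation with that probe set over the same arrays. This likeness and the differences that follow are thus descriptions and no separate support. Perichondral exceeded hypertrophic by 3.49 (SE 0.75, limma adjusted p = 0.23) for Edil3 and by 2.94 (SE 0.82, limma adjusted p = 0.564) for Matn2.

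**Figure D4:**
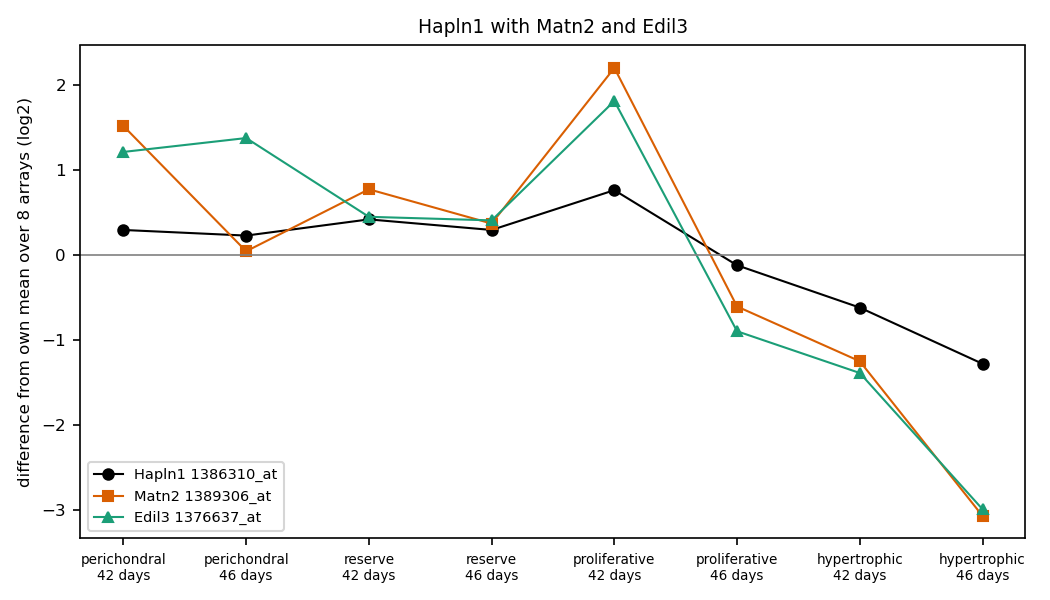
Level of Hapln1 (1386310_at), Matn2 and Edil3 in each array as the difference from the gene's own mean over the 8 arrays, on the log2 scale; lines join the arrays only to guide the eye. All 3 are highest in the 42-day proliferative and lowest in the 46-day hypertrophic array, where Hapln1 stood at 14.55 and Edil3 at 8.65. Matn2 and Edil3 were picked for their correlation with Hapln1 over these arrays.

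Of 69 further genes of the aggregate, its turnover and the members' relatives, 54 were measured, and limma called 0 of them in either direction in each of the 6 zone comparisons and for age. Matrilins and other non-collagenous cartilage proteins (10 of 14 measured) had a higher mean in perichondral than in hypertrophic arrays for 10 of 10 genes, with a median difference of 1.71 against -0.03 over all probe sets. In reserve against hypertrophic arrays it was again 10 of 10, with a median of 1.74 against -0.06, and in proliferative against hypertrophic arrays 7 of 10, with a median of 1.0 against 0.00. At an unadjusted p below 0.05 there were 5, 4 and 3 of the 10, against 6.17%, 8.1% and 5.52% of all probe sets. The glycoprotein Tnc was named for its zone range, with means of 10.23 in perichondral, 10.65 in reserve, 7.73 in proliferative arrays and 7.15 in hypertrophic ones, and its proliferative arrays lay far apart at 5.50 and 9.96.

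The hyaluronan genes and the proteases of the aggrecan aggregate did not share a direction. Of the hyaluronan genes (13 of 16 measured), 7 had a higher mean in perichondral, 5 in reserve and 9 in proliferative than in hypertrophic arrays. Has2, the hyaluronan synthase, stood between 9.68 and 10.61 in all 8 arrays, with both hypertrophic arrays the highest, and Lyve1, a hyaluronan receptor of lymphatic vessels, between 9.49 and 11.26. Cemip and Itih4 had the widest zone ranges in this list but were above the median probe set in only 3 and 2 arrays. Of the aggrecanases and related genes (10 of 11 measured), 8 of 10 had a lower mean in proliferative than in hypertrophic arrays. It was 7 of 10 against reserve and 7 of 10 against perichondral arrays. Adamts4, an aggrecanase, stood at 7.47 and 8.55 in proliferative and at 10.83 and 9.29 in hypertrophic arrays, a difference of -2.05 (SE 0.73, limma adjusted p = 0.894). Adamts1 stood at 11.33 and 10.65 in reserve arrays against 7.51 and 7.22 in proliferative ones, a difference of 3.63 (SE 0.91, limma adjusted p = 0.308). Adamts5, the main aggrecanase beside Adamts4, stood between 9.03 and 10.19 throughout. Timp3, which inhibits these proteases, had its highest mean, 10.15 ± 0.47 (SD, n = 2), in reserve arrays, with 10.00 ± 0.25 close by in hypertrophic arrays. Its means were 8.92 in perichondral and 9.01 in proliferative arrays.

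Relatives of the members were mostly dim. Among the other lecticans and link proteins (6 of 6 measured), only Vcan, the versican core protein, was above the median probe set in all 8 arrays, between 8.62 and 10.12. Hapln2, Hapln3 and Bcan were above it in 4, 1 and 3 arrays. Of the thrombospondins related to Comp (3 of 4 measured), Thbs4 and Thbs3 were above it in 4 and 3 arrays. The relatives of Cnmd with a BRICHOS domain (3 of 4 measured) included Itm2b, at 13.14 and 12.94 in reserve and 10.88 and 8.19 in proliferative arrays, and Itm2c and Tnmd, the tendon homologue of Cnmd, above the median probe set in 4 and 1 arrays. Of the cartilage transcription factors (9 of 14 measured), Trps1 stood between 13.05 and 13.62 and Mef2c between 12.20 and 14.14 in all arrays. Sox6, a partner of SOX9 in the activation of cartilage matrix genes, had means of 9.90 in perichondral, 9.79 in reserve, 8.43 in proliferative arrays and 9.18 in hypertrophic ones, and Runx3 was above the median probe set in 1 array.

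Markers of other tissues that hold Comp or Cnmd, or that a dissected zone could carry, also differed in level between zones. Of the tendon and ligament list 5 of 7 were measured and 3 of these lay above the median probe set. Its summed level was 42.9 to 48.7 in perichondral, 45.4 to 51.3 in reserve, 40.1 to 44.6 in proliferative arrays and 41.4 to 45.2 in hypertrophic ones. The perichondral range thus overlapped every other zone, and the proliferative and hypertrophic ranges overlapped each other. Only the reserve range lay above the proliferative and hypertrophic ones. The leukocyte and marrow list (9 of 10 measured, 4 above the median) summed to 97.2 and 98.5 in reserve arrays, 64.9 to 94.6 in hypertrophic, 61.0 to 70.0 in perichondral and 58.3 to 61.7 in proliferative arrays. The fibrous list (12 of 12 measured, 11 above the median) summed to 139.1 to 147.3 in perichondral, 138.8 to 141.4 in reserve, 109.8 to 117.8 in proliferative arrays and 111.0 to 137.3 in hypertrophic ones. Osteoclast markers (5 of 9 measured) summed to 50.9 to 54.7 in reserve arrays and 28.5 to 44.1 elsewhere, erythroid markers (6 of 8) to 59.9 to 65.0 against 46.4 to 58.9, and endothelial markers (6 of 7) to 52.8 to 56.9 against 42.9 to 51.1. Bone markers (6 of 8 measured) summed to 59.5 to 65.4 in reserve arrays, above perichondral (48.4 to 56.3) and proliferative ones (45.1 to 48.9). Their reserve range overlapped that of hypertrophic arrays (51.5 to 62.3). Muscle markers (7 of 8) summed to 56.6 to 60.1 in reserve arrays, below proliferative ones (60.2 to 60.6). That reserve range overlapped perichondral (58.2 to 58.7) and hypertrophic arrays (57.1 to 61.0). No marker can be said to be absent without detection calls, and the part of these cells in the members' differences was not tested.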

How the data were processed

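Intensities of 31099 probe sets in 8 arrays were deposited on a linear scale. MAS5, GCOS and RMA are named by the submitters' processing notes, without versions or roles. Trimmed of a share of 0.02, the deposited intensities average 500.08 to 500.16 in each array, so the authors' values share 1 scale. Depth is not defined for arrays, and their number limits the precision.

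From these, 57 control probe sets were left out. Array medians of log2(intensity + 16) spread from 7.92 to 8.51, more than 0.1, so values were quantile normalized with limma 3.58.1 in R 4.3.3. Of 31042 probe sets, 20826 had 1 gene symbol in the platform annotation, updated through gene identifiers, 436 several and 9780 none. A model with the 4 zone means covered all 8 arrays (eBayes with trend, residual degrees of freedom 4, prior 12.58). Pairs of zones, an F-test over zones, and age with zone as a covariate were tested. P-values were adjusted by Benjamini-Hochberg across the 31042 probe sets, threshold 0.05. The procedure was tested on simulated data. Alternatives were other pseudocounts (1 and 64), deposited or median-centred arrays, probe sets above the median, age as a block, the log2 Gapdh ratio as a covariate, the arrays of a pair alone, and each array left out. Detection calls were not used.

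All listed genes were named whatever their values. From each related list, the 2 brightest genes and the 2 with the widest zone range were named, at 1 probe set per gene, the brightest. The members and lists were chosen with earlier results of these data known. Zones share ages, so age as a replicate block was an alternative; the difference of 46 from 42 days correlated between zones at r = 0.0225 to 0.0806 over all probe sets and at 0.0581 to 0.31 over the brightest share of 0.2. Not every pair of zones was over 0.1 in either, so the arrays were not taken as paired. Nothing states whether zones came from the same rats. Zone p-values measure the spread between these pools, and age p-values how the age difference varied between zones.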

Additional observations from a re-analysis of the deposited data

Results flagged for a closer look

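A pair of zone differences had opposite signs at the 2 ages with a size over 1 at both, a minimum set after the data were seen, and neither reversal was tested because each age has 1 array per zone. For Cnmd, perichondral minus proliferative was 1.03 at 42 days and -1.44 at 46 days. For Hapln1 on 1370125_at, reserve minus proliferative was 1.26 at 42 days and -1.06 at 46 days, while on the brighter 1386310_at the values ran the other way, at -0.34 and 0.42. Of the 60 member comparisons, 22 had opposite signs at the 2 ages.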

How the results depend on the processing

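The 2 arrays per zone limit the precision. No zone comparison or F-test of a member passed under any alternative run, including age as a replicate block, under which the count of member calls was 0 and the smallest adjusted p of limma among the members was 0.263 (Acan 1387355_at, reserve minus hypertrophic). For age, median-centred arrays called 1 member, Acan 1387355_at, where the main setting called 0. Of 918 alternative values of single members, 887 kept direction and side of the threshold and 30 changed sign, and the cause was not tested. These values cover the comparisons with the hypertrophic zone, perichondral minus reserve, the F-test and age. F values have no sign to change, so they count as kept by the threshold alone. The age block, the arrays of a pair alone and the probe sets above the median leave each difference itself unchanged. Their values could not change sign either, so the count of 887 holds many that were kept by construction. Perichondral minus proliferative and reserve minus proliferative are not among the 918. With the Gapdh covariate, perichondral minus reserve was 0.26 and 0.32 for Acan (1368836_a_at and 1387355_at), 0.13 for Hapln1 1386310_at and 0.14 for Comp, proliferative minus hypertrophic was 0.80 for Crtac1 1391833_at, and 46 minus 42 days was 0.57 for Hapln1 1370125_at. As deposited, perichondral minus reserve was 0.15 for Hapln1 1386310_at and proliferative minus hypertrophic 0.00267 for Acan 1368836_a_at. Median-centred, perichondral minus reserve was -0.0199 for Crtac1 1391383_at. With each array left out in turn, the lone array of its zone being assumed to vary like the other zones, perichondral minus reserve ran from -0.89 to 0.13 for Acan 1368836_a_at, -1.71 to 0.37 for Acan 1387355_at, -1.28 to 0.052 for Hapln1 1370125_at, -1.30 to 0.15 for Comp 1387137_at, -0.17 to 1.15 for Crtac1 1368381_at and -0.21 to 0.46 for Crtac1 1391383_at. Perichondral minus hypertrophic ran from -0.0090 to 0.97 for Acan 1368836_a_at, -0.26 to 0.54 for Hapln1 1370125_at, -0.25 to 1.18 for Comp 1387137_at, -0.40 to 1.29 for Cnmd 1387164_at, -0.91 to 0.0089 for Crtac1 1391383_at and -0.39 to 0.93 for Crtac1 1391833_at. Reserve minus hypertrophic ran from -0.093 to 1.94 for Hapln1 1384541_at, proliferative minus hypertrophic from -0.53 to 0.46 for Acan 1368836_a_at, -0.042 to 1.99 for Hapln1 1384541_at and -1.80 to 0.30 for Crtac1 1391833_at, and 46 minus 42 days from -0.63 to 0.16 for Hapln1 1370125_at. Counts of all probe sets called moved more. Between perichondral and hypertrophic arrays 9 became 55 with the age block and 1 median-centred, between reserve and hypertrophic 7 became 38 and 1, between proliferative and hypertrophic 4 became 11 and 0, between reserve and proliferative 7 became 60 with the block, and the block gave 3 and 13 where perichondral minus reserve and minus proliferative had 0. With an array left out these counts ran from 0 to 167, the highest for reserve minus hypertrophic without the 42-day hypertrophic array. For age, 0 became 45 as deposited and 140 median-centred, and the F-test count of 12 became 96 with the block and ran from 2 to 80 with an array left out.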
